A study of Mus musculus with 96 samples.

Results

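Genes that take up, store, export or free iron, and the metallothioneins that bind zinc and copper, were followed in mouse primary bone marrow dendritic cells given a ligand of a Toll-like receptor. The set was named by gene: Hamp, Slc40a1, Slc11a1, Tfrc, Fth1, Hmox1, Mt1 and Mt2. Every probe set that the platform annotation ties to exactly one of these genes was taken, which gave 12 of 18858 probe sets for 7 of the 8 genes. No probe set was annotated to Mt2, which was not analysed here. All 12 probe sets lay above the floor of the values, an intensity of 20, on at least 1 array. Where a gene had several probe sets, the one that was brightest on average across the 96 arrays stands for it, and the others are given beside it.

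The study asked how these cells respond over a day to different ligands, each a probe of its own receptor. The labels name the ligands Lps, Pic, Pam, Cpg and Grd, and from knowledge of the study these are lipopolysaccharide, poly(I:C), a synthetic bacterial lipopeptide, CpG oligonucleotides and gardiquimod. Cells given Lps, Pic, Pam or Grd had 18 arrays each, 2 at each of 9 times from 0.5 to 24 h, and cells given Cpg had 16, with 1 array each at 16 and 24 h. Unstimulated cells, labelled Control, had 8 arrays, 1 each at 0, 1, 2, 4, 6, 8, 12 and 24 h. The labels give no strain, age, dose or genotype. Whether the arrays at one time stand for separate cultures is not stated either, and the p-values cover only the spread among these arrays, which could be technical.

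The times were read in 3 windows, called early up to 2 h, middle from 4 to 8 h and late from 12 to 24 h. Each held 3 times and 6 arrays of a ligand, or 4 arrays for Cpg late. A gene is written as called, or as having risen or fallen, where the adjusted p of limma was under 0.05 and the log2 difference was at least 1 in size, and ± after a log2 difference is its standard error. All 7 dendritic cell markers with a probe set were above the floor on at least 1 array of each ligand and of Control, and so were all 9 macrophage and all 7 neutrophil markers. Some of them were near it: Mpo had a median of 20 with Pam and of 24.15 in Control, and Flt3 had medians of 24.85 to 28.2 with the ligands and 28.15 in Control. Of 4 erythroid markers, Hba-a1, Epor and Slc4a1 lay at the floor on all arrays, and of 3 hepatocyte markers Alb and Serpina1a did. On the plate, Lps, Pic, Pam and Grd held columns 1 to 9, 1 for each time, while Cpg and Control held columns 10 to 12, so for those 4 ligands the plate column cannot be told apart from the time, nor from the difference to unstimulated cells. Lps, Pic, Pam and Grd also held plate rows of their own, so row cannot be told apart from ligand among them. These are bulk samples, in which fewer cells of a type and less RNA per cell cannot be told apart.

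Cells bring in transferrin-bound iron through the transferrin receptor, store it in ferritin and send it out through ferroportin, the only known mammalian iron exporter. Hepcidin, a peptide hormone made mainly by the liver, binds ferroportin and has it degraded, and in infection phagocytes tend to hold iron back from microbes. Heme oxygenase 1 opens the heme ring and frees its iron, and metallothioneins are small cysteine-rich proteins that bind zinc and copper and are induced by metals and by stress.

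The 7 measured genes did not move as one group. In the late window Hmox1 and Slc11a1 rose with Lps, Pam, Cpg and Grd, Mt1 fell with all ligands but Pam, and Tfrc fell with Pic. From 4 to 8 h Hamp was highest with Lps and Pam. Slc40a1 stayed low with Pic and Pam through the middle window while it stood higher with Lps, Cpg and Grd. Fth1 was not called in any comparison.

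**Figure D1:**
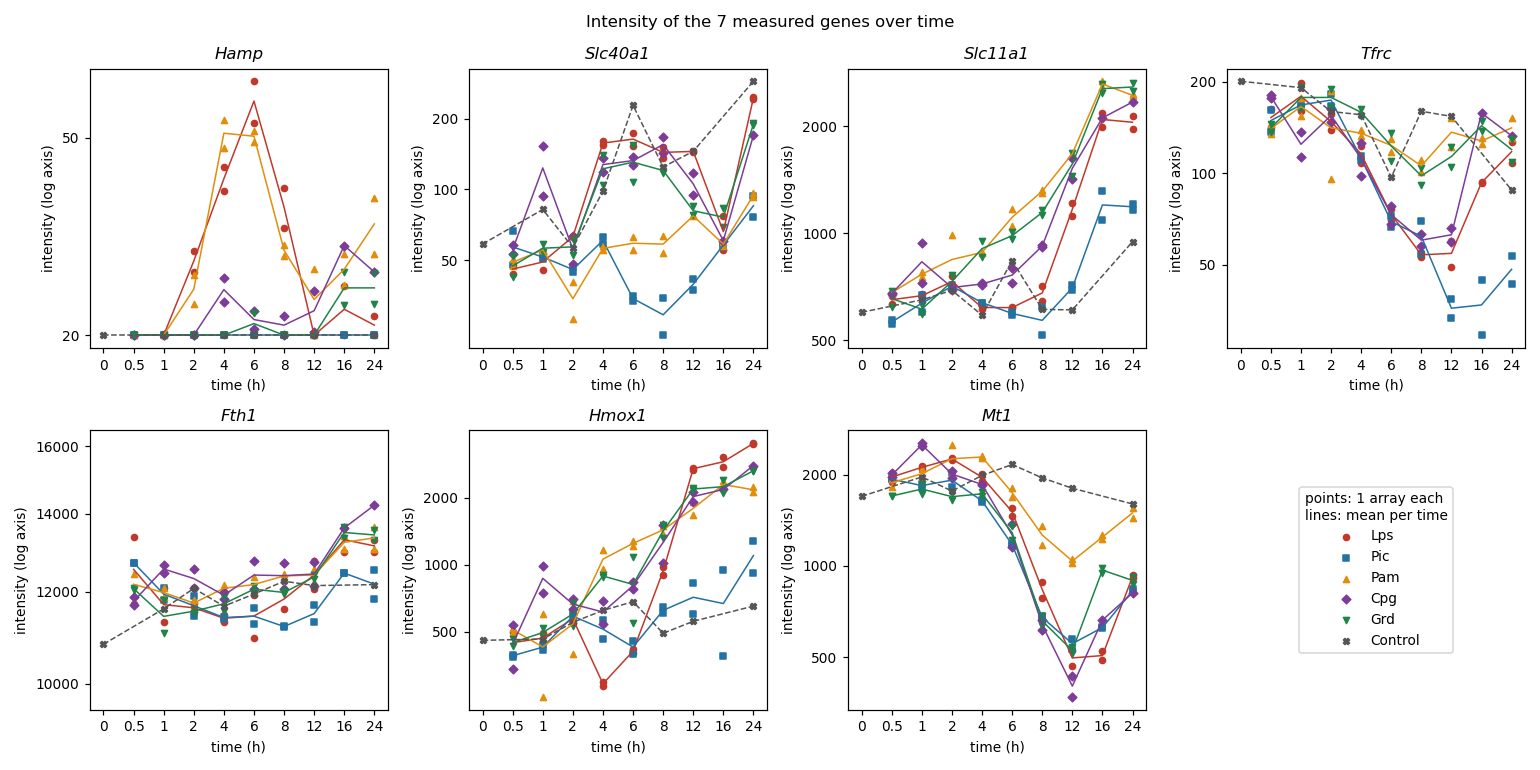
Intensity on a log axis against time in hours for the 7 measured genes, with 1 point for each array, a line through the mean of each ligand at each time and a dashed line for the unstimulated arrays. Hamp is highest with Lps and Pam at 4 to 8 h, Hmox1 and Slc11a1 are highest late, and least so with Pic, and Mt1 lies below the unstimulated line from 8 h on.

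Against unstimulated cells, 21 of 105 pairs of a gene and a window were called, 11 higher and 10 lower. In the early window 1 of the 7 genes was called with Lps, Pic, Pam and Grd each, where 2.12%, 0.863%, 2.39% and 1.12% of all 10543 items tested were called, and 0 with Cpg, against 2.14% of all items. For the middle window, 1 gene was called with Lps, 1 with Pic, 2 with Pam and 0 with Cpg and with Grd, where 15.3%, 7.72%, 7.48%, 10.9% and 8.45% of all items were called. The gene called with Lps and 1 of the 2 called with Pam there were Hamp. These 2 of the 21 calls are descriptions, as set out below. Late, 3 genes were called with Lps, 2 with Pic, 2 with Pam, 3 with Cpg and 3 with Grd, where the shares of all items were 9.12%, 8.54%, 6.39%, 7.09% and 6.72%. Where limma called 0 of 7, an unadjusted p under 0.05 was reached by 2 genes for Cpg early, 5 for Cpg middle and 3 for Grd middle, without a log2 size of 1. Mt1 with Cpg in the middle window, at -0.70 with an adjusted p of 1.1e-18, is one of them. Hamp is also among the 5 for Cpg middle, but its p is no measure of its spread, as set out below.

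**Figure D2:**
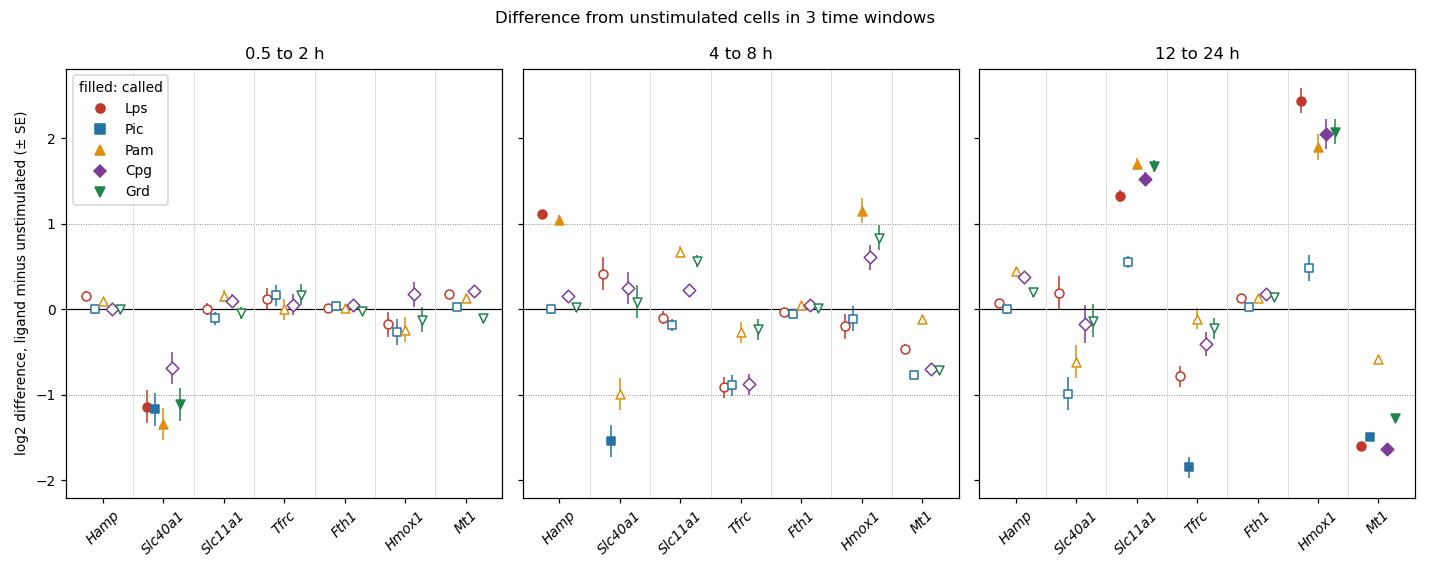
Log2 difference from the mean of the 8 unstimulated arrays, with its standard error, for each gene and ligand in the early (0.5 to 2 h), middle (4 to 8 h) and late (12 to 24 h) window. Filled marks were called, and the dotted lines stand at 1 and -1. The late panel holds Hmox1 with Lps at 2.44, the largest rise among these genes, and Tfrc with Pic at -1.85, the largest fall.

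Hamp encodes hepcidin. The gene lies at chr7:30942368-30944029 in RefSeq's GRCm38.p6 annotation, and its near copy Hamp2 at chr7:30922372-30924181. The 250 bases before each start, from RefSeq's promoter table in that build, are shown because they hold, side by side, the sequence letters through which the liver gene is known to be switched on by interleukin 6 and by bone morphogenetic proteins, and because they show how alike the copies are. Capitals mark GGCGCC, the core of the bone morphogenetic protein response element, TTCNNNGAA, the STAT consensus, and TGANTCA, the AP-1 consensus, each of which reads the same on both strands.
Hamp: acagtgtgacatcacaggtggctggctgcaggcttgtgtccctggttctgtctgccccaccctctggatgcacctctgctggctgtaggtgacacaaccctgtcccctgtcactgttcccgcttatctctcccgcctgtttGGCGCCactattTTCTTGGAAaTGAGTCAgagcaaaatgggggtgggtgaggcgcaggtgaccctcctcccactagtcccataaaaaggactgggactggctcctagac
Hamp2: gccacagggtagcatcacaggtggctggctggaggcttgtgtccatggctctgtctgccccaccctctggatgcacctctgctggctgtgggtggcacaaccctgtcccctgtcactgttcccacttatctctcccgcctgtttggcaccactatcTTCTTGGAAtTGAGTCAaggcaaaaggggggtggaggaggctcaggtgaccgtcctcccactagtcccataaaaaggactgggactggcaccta
The windows are chr7:30944030-30944279 and chr7:30924182-30924431, both on the minus strand. In Hamp the matches began 109, 97 and 87 bases before the start and did not overlap, and Hamp2 held the STAT and AP-1 letters but no GGCGCC in this window. All positions here and below are those of RefSeq's GRCm38.p6 tables. Shifted by 3 bases to line up, the windows were identical at 227 of 247 bases, or 91.9%. Among 32817 promoter windows of this length, 9.59% held GGCGCC, 7.01% the STAT letters and 6.75% the AP-1 letters.

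Hamp was at 20 on all 8 unstimulated arrays and on all 18 Pic arrays. With Lps the pairs of arrays read 26.8 and 29.6 at 2 h, 39.0 and 43.6 at 4 h, 64.9 and 53.5 at 6 h and 39.6 and 32.8 at 8 h, and both arrays were back at 20 at 12 h. With Pam they read 26.4 and 23.1 at 2 h, 47.7 and 54.3 at 4 h, 51.6 and 49.0 at 6 h and 28.9 and 30.4 at 8 h. All 12 arrays of the middle window with Lps or Pam thus lay above every unstimulated and every Pic array. In that window Hamp was at least 2.22-fold higher with Lps and at least 2.12-fold higher with Pam than in unstimulated cells, taking the floor as the unstimulated level, and at 6 h with Lps it was at least 2.95-fold higher.

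Over the middle window Hamp averaged 45.6 ± 11.7 with Lps and 43.7 ± 11.1 with Pam (SD, n = 6 each), while all 8 unstimulated arrays were at 20. The fitted log2 differences were 1.11 with Lps and 1.05 with Pam. Their standard error is pooled over groups of which many lie at the floor with no spread, and so does not measure the spread of Hamp above the floor. The text therefore gives no standard error or p for Hamp, its calls are descriptions, and it passed the filter on low values only through arrays of stimulated cells. Both values lie close to the threshold of 1: without the 6 h arrays they were 0.91 and 0.93, and for Pam without the 4 h arrays 0.92. With 16 added before the log they were 0.75 and 0.71, and no call of Hamp in any comparison was kept. With Cpg, Hamp reached 23.3 and 26.1 at 4 h, 30.3 at 16 h and 26.8 at 24 h, and with Grd 26.8 and 23.0 at 16 h and 26.7 and 23.1 at 24 h. These values lay near the floor and were not called, at 0.38 with Cpg and 0.20 with Grd in the late window. With Pam a second step appeared late, with 37.8 and 29.2 at 24 h and a late window difference of 0.45, also not called.

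The second Hamp probe set gave 56.0 and 36.2 at 4 h, 50.7 and 50.8 at 6 h and 38.3 and 28.7 at 8 h with Lps. With Pam it gave 54.6 and 48.8 at 4 h, 44.7 and 56.6 at 6 h and 24.3 and 28.0 at 8 h, and it was at 20 on all unstimulated and all Pic arrays. Its middle window differences were 1.05 with Lps, which was called, and 0.99 with Pam, which was not. The brighter probe set is of a kind that may also match near-identical transcripts, and Hamp2 was not measured separately here, so Hamp and Hamp2 cannot be told apart in these values. Among hepatocyte markers, Ttr was at 20 on all Lps, Pic and unstimulated arrays and at most 22.4 on a Pam array.

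**Figure D3:**
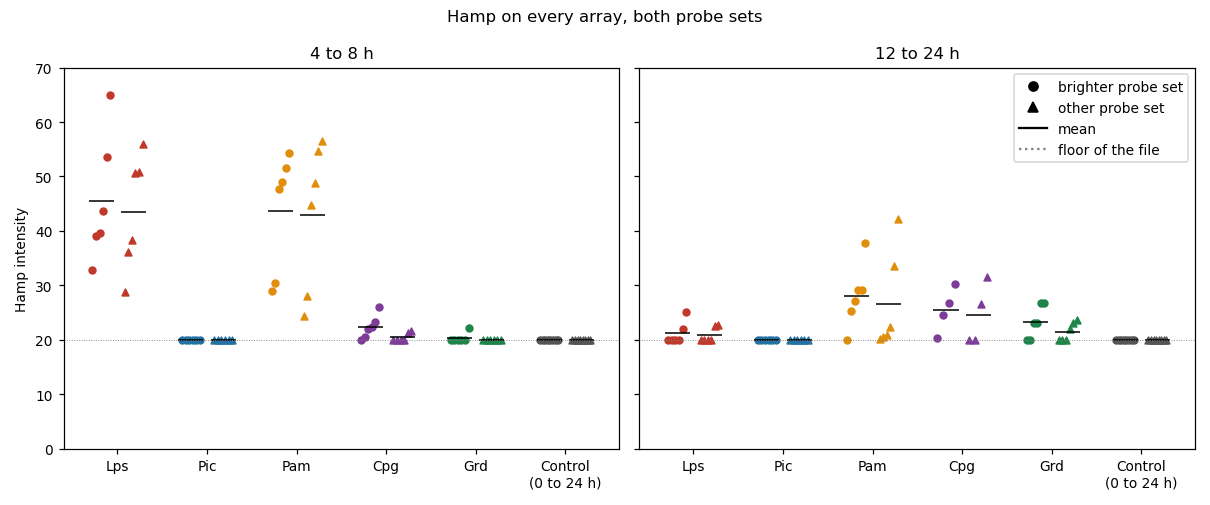
Hamp intensity on every array of the middle (left) and late (right) window for the 5 ligands, with the 8 unstimulated arrays repeated at the right of each panel. Circles are the brighter probe set and triangles the other, black bars are means and the dotted line is the floor of 20. In the middle window both probe sets lie between 24.3 and 64.9 with Lps and Pam and at 20 on every Pic and unstimulated array.

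Slc40a1, at chr1:45908070-45926532, encodes ferroportin, through which iron leaves the cell. From 4 to 8 h it was lower with Pic and with Pam than with Lps, Cpg or Grd. With Pic the arrays read 63.0 and 58.4 at 4 h, 35.1 and 33.6 at 6 h and 24.0 and 34.6 at 8 h. With Pam they read 55.1 and 57.2 at 4 h, 63.0 and 55.1 at 6 h and 53.9 and 63.2 at 8 h. The lowest, median and highest of the 6 middle window arrays were 137, 154 and 174 with Lps, 119, 137 and 167 with Cpg and 105, 120.4 and 154 with Grd. The Pic and Pam arrays did not overlap with those of the other 3 ligands.

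Between ligands in the middle window, Slc40a1 was higher with Lps than with Pic by 1.95 ± 0.20 (adjusted p = 8.5e-12) and higher with Lps than with Pam by 1.40 ± 0.20 (adjusted p = 3.9e-08). Pic against Cpg gave -1.79 ± 0.20 and Pic against Grd gave -1.63 ± 0.20. Pam against Cpg gave -1.24 ± 0.20 and Pam against Grd gave -1.08 ± 0.20. Of these 6 calls, the one for Pam against Grd was lost with the other Slc40a1 probe set, at -0.91, without the second 6 h array of Grd, at -0.99, with 16 added before the log, at -0.92, and with plate row as a block, at -1.04 and an adjusted p of 0.22.

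Unstimulated cells did not hold Slc40a1 at one level. Their arrays read 58.6 at 0 h, 82.2 at 1 h, 56.6 at 2 h, 98.4 at 4 h, 228 at 6 h, 125 at 8 h, 145 at 12 h and 289 at 24 h. Fitted on the log2 of hours plus 1 over these 8 arrays alone, the change over 24 h was 2.25 ± 0.52 on the log2 scale with an adjusted p of 0.043. It was the only one of the 7 genes called, where 3.25% of all items were. The call was lost without any one of the arrays but that of 6 h, with adjusted p between 0.061 and 0.15 for those 7 fits, and with all probe sets tested, at 0.071. The 6 and 24 h arrays, the highest for Slc40a1, also had the highest summed level of 9 macrophage markers, 15617 and 16947 against 10510 to 12538 on the other 6. The summed level of the 7 dendritic cell markers was 26797 and 27857 on those arrays, against 27195 to 28683 on the other 6, although Itgax, an integrin on that list, was lowest on them, at 2116.5 and 1536 against 3513 to 4173. The part of these markers in the result was not tested.

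Several Slc40a1 calls against unstimulated cells depended on which unstimulated arrays were used, while that of Pic in the middle window did not. Comparisons at the same times also leave out the ligand arrays of 0.5 and 16 h. Against the mean of all 8 unstimulated arrays, Slc40a1 fell in the early window, with differences of -1.14 with Lps, -1.17 with Pic, -1.34 with Pam and -1.11 with Grd. Against the unstimulated arrays of the same times, 1 and 2 h, the values were -0.29, -0.48, -0.65 and -0.27, with adjusted p between 0.063 and 0.73 and none called. Without the 6 and 24 h unstimulated arrays, an alternative chosen after seeing the data, they were -0.76, -0.79, -0.96 and -0.73. Leaving out the 24 h unstimulated array alone ended the calls with Lps (-0.95), Pic (-0.98) and Grd (-0.92), and leaving out the 6 h one ended those with Lps (-0.999) and Grd (-0.97). The 6 Pam arrays, 28.1 to 55.5, lay below all 8 unstimulated arrays, while the early arrays of the other ligands overlapped with them.

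In the later windows the differences with Pic and Pam were larger in size against unstimulated arrays of the same times. With Pic in the middle window the value was -1.54 ± 0.19 against all unstimulated arrays (adjusted p = 5.1e-10) and -1.82 ± 0.25 against those of 4, 6 and 8 h. With Pic in the late window the value was -0.99 against all unstimulated arrays, which missed the threshold but passed it without any one of the unstimulated arrays of 0, 1, 2 or 4 h (-1.13 to -1.02) or without the second Pic array of 12 h (-1.01) or of 24 h (-1.03), and -1.81 ± 0.26 against those of 12 and 24 h (adjusted p = 5.8e-08). With Pam the values against all unstimulated arrays were -0.99 in the middle and -0.61 in the late window, and -1.27 and -1.25 against those of the same times, both called there. Pam in the middle window also passed without any one of those 4 unstimulated arrays (-1.14 to -1.02), the first 6 h Pam array (-1.02) or the second 8 h one (-1.03). With Lps, Cpg and Grd no middle or late window difference was called in either way of comparing.

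At 24 h Slc40a1 read 247 and 244 with Lps, 76.7 and 93.8 with Pic, 96.2 and 92.9 with Pam, 170.1 with Cpg and 191 and 188 with Grd, against 289 in unstimulated cells. At 16 h, a time with no unstimulated array, all 9 arrays lay between 55.1 and 83.1. There the Grd arrays, 69.4 and 83.1, lay above those of Pic (57.0 and 59.1), Pam (57.6 and 59.5) and Cpg (60.6) and overlapped with those of Lps (55.1 and 77.3). Late, only Lps against Pic was called among the 10 ligand pairs, at 1.18 ± 0.20 (adjusted p = 2.5e-06), and without the 12 h arrays it was 0.84. Pic against Cpg, at -0.82, was called without the 16 h Cpg array, at -1.19. The other Slc40a1 probe set ran from 20 to 158 and gave -1.27 with Pic in the middle window, also called, and -0.75 with Pam.

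**Figure D4:**
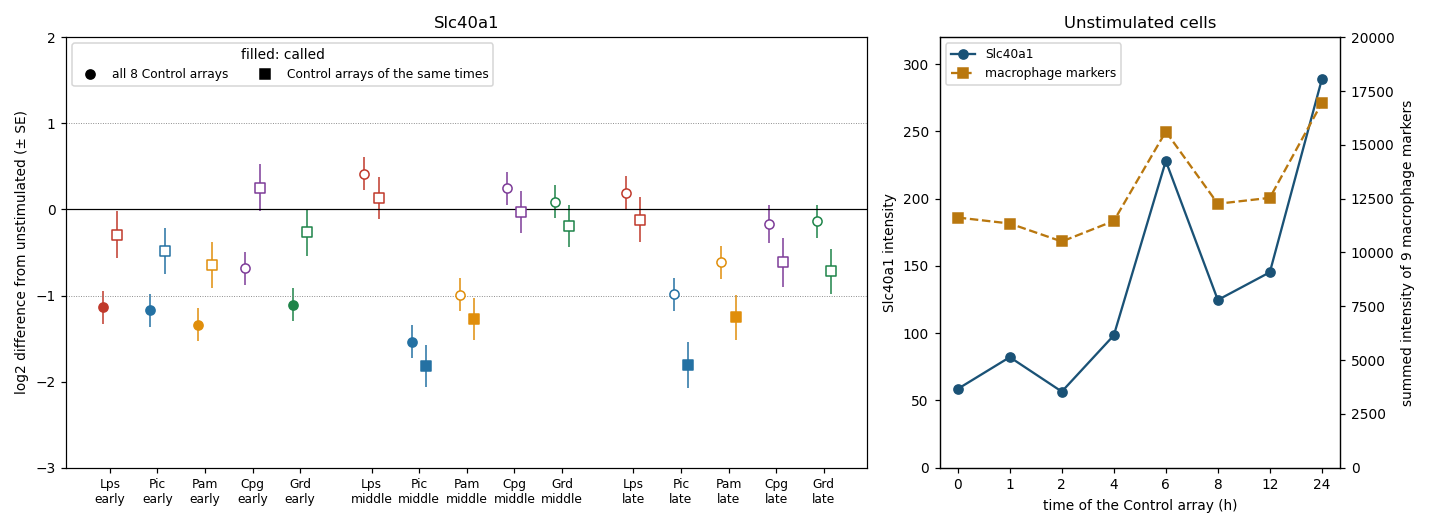
Left, log2 difference of Slc40a1 from unstimulated cells, with its standard error, by ligand and window, against all 8 unstimulated arrays (circles) and against those of the same times (squares), filled where called. Right, Slc40a1 intensity and the summed intensity of 9 macrophage markers on the 8 unstimulated arrays by time. The early falls lose their call against arrays of the same times, Pic and Pam are called in the middle and late windows against them, and both curves on the right are highest at 6 and 24 h.

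Tfrc, at chr16:32608896-32632794, encodes the transferrin receptor. In the late window it fell with Pic. With Lps the late value of -0.78 was not called, but it was called without the 24 h arrays of each ligand (-1.02) and without the 6 and 24 h unstimulated arrays (-1.0002). With Pic the arrays read 33.5 and 38.6 at 12 h, 44.5 and 29.4 at 16 h and 53.6 and 43.2 at 24 h, while unstimulated arrays ran from 88.2 at 24 h to 201 at 0 h with a median of 158. All 6 late Pic arrays lay below all 8 unstimulated arrays. The difference was -1.85 ± 0.12 (adjusted p = 2.8e-19), and -1.46 ± 0.19 against the unstimulated arrays of 12 and 24 h.

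Between 4 and 8 h Tfrc with Lps had a lowest, median and highest intensity of 53.3, 73.4 and 123, with Pic 54.2, 71.1 and 114 and with Cpg 57.7, 73.2 and 126, which overlapped with the unstimulated arrays. Their differences of -0.91, -0.89 and -0.88, each ± 0.12, had adjusted p of 3.5e-09, 9.6e-09 and 1.1e-08 but missed a log2 size of 1. Without the 6 and 24 h unstimulated arrays they were -1.13, -1.10 and -1.09 and were called, and without the 24 h one alone Lps was, at -1.01. With Pam and Grd the middle window differences were -0.27 and -0.23. The late arrays then went apart: with Cpg, Tfrc read 59.7 and 66.0 at 12 h but 158 at 16 h and 133 at 24 h, and with Lps 60.1 and 49.1 at 12 h but 109 and 127 at 24 h, while with Pic no late array passed 53.6.

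Against other ligands in the late window, Tfrc gave -1.74 ± 0.13 for Pic against Pam, -1.44 ± 0.15 for Pic against Cpg and -1.63 ± 0.13 for Pic against Grd. Lps against Pic gave 1.06 ± 0.13 (adjusted p = 1.2e-09), and 0.97 without the second 16 h array of Pic. The other 2 Tfrc probe sets were near the floor, the brighter of them between 20 and 38.3, and gave -0.46 and 0.00 for Pic late against unstimulated cells. These calls of Tfrc thus rest on 1 probe set. The summed late level of 5 proliferation genes was 2537 to 3049 with Lps, 2538 to 4259 with Pic, 2633 to 2952 with Pam, 2892 to 3473 with Cpg and 2739.5 to 3188 with Grd, against 3182 to 4700 in unstimulated cells. Over all times Pcna, the brightest of these genes, had medians of 2535 to 3388 with the ligands and 3690 in unstimulated cells. Top2a, Mcm2 and Mcm5 also had lower medians with each ligand, but Mki67 had higher ones, 216 to 335 against 131. These medians are not of the late window alone, and the part of these genes in the result was not tested. In unstimulated cells the change of Tfrc over 24 h was -0.997 ± 0.33 with an adjusted p of 0.084.

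Slc11a1, at chr1:74375014-74386057, encodes NRAMP1, which carries iron and manganese out of the phagosome. It rose late with 4 of the 5 ligands. The lowest, median and highest of the late arrays were 1116.5, 1982 and 2181 with Lps, 1672, 2442 and 2675 with Pam, 1417, 1868 and 2338 with Cpg and 1452, 2497 and 2639 with Grd, against 587, 629.5 and 946 in unstimulated cells. These late arrays lay above all 8 unstimulated arrays, of which those of 6 and 24 h, 836 and 946, were the highest. The differences were 1.33 ± 0.07 with Lps, 1.69 ± 0.07 with Pam, 1.52 ± 0.08 with Cpg and 1.67 ± 0.07 with Grd, with adjusted p between 1.2e-27 and 2.1e-22.

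With Pic, Slc11a1 read 690.1 and 712 at 12 h, 1311 and 1089 at 16 h and 1163 and 1209 at 24 h. The 4 arrays of 16 and 24 h lay above all unstimulated arrays and the 2 of 12 h did not, and the late difference of 0.55 ± 0.07 was not called. Against Pic the late level was higher with Pam and Grd: Pic against Pam gave -1.14 ± 0.08 and Pic against Grd -1.12 ± 0.08, both called, and Pic against Cpg gave -0.97 ± 0.09, not called, but called without the first 16 h Pic array (-1.02) or the first 12 h Cpg array (-1.004). Pam and Grd in the middle window stood at 0.67 ± 0.07 and 0.56 ± 0.07 while Lps stood at -0.10 ± 0.07, none called. The summed macrophage markers in the late window were 8456 to 13912 with Lps, 7380 to 9672 with Pic, 11014 to 18922 with Pam, 11247 to 16726 with Cpg and 10911 to 20231 with Grd, against 10510 to 16947 in unstimulated cells. The summed neutrophil markers in the late window were 1207 to 3028 with Lps, 3917 to 6186.5 with Pic, 2284.5 to 3227 with Pam, 1598 to 3781 with Cpg and 2177 to 4392 with Grd, against 5172 to 8190 in unstimulated cells. Their part in the Slc11a1 result was not tested.

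Fth1, at chr19:9980600-9985111, encodes the heavy chain of ferritin, the iron store. Over all 96 arrays it ran from 10814 at 0 h in unstimulated cells to 14234 at 24 h with Cpg. In the late window the differences were 0.13 with Lps, 0.03 with Pic, 0.13 with Pam, 0.18 with Cpg and 0.15 with Grd, each ± 0.02 or 0.03, and adjusted p were under 0.05 for all but Pic. Only with Grd did the late arrays, 12303 to 13630, lie above all unstimulated arrays, 10814 to 12248. None reached a log2 size of 1. On average the Fth1 probe set was brighter than 99.97% of probe sets, and the highest intensity of any was 16401.5. How well differences are resolved at such intensities was not tested. Ferritin is known to be controlled largely at translation, by iron regulatory proteins, and these arrays measure RNA.

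Hmox1, at chr8:75093618-75100593, encodes heme oxygenase 1, the inducible enzyme that breaks down heme. It gave the largest late rises of the set, and its course differed between ligands. With Lps it read 286 and 299.6 at 4 h, 418 and 403 at 6 h, 903 and 976 at 8 h, 2725 and 2674 at 12 h and 3500.3 and 3514 at 24 h, against 459, 555 and 684 (lowest, median and highest) in unstimulated cells. All 4 Lps arrays of 4 and 6 h lay below, and all 6 late ones above, every unstimulated array. With Pam it already read 957 and 1164 at 4 h and 1372 and 1498 at 8 h, and all 12 Pam arrays from 4 h on lay above every unstimulated array.

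Late, Hmox1 rose by 2.44 ± 0.15 with Lps, 1.90 ± 0.15 with Pam, 2.05 ± 0.17 with Cpg and 2.08 ± 0.15 with Grd on the log2 scale, with adjusted p between 4.7e-21 and 3.7e-15. With Pic the late arrays ran from 391 to 1278 with a median of 878, and the difference of 0.48 ± 0.15 was not called. The pair of Pic arrays at 16 h differed, at 950 and 391. In the middle window the rise with Pam of 1.15 ± 0.15 was called (adjusted p = 1.3e-09), while Grd stood at 0.84 ± 0.15, Cpg at 0.61 ± 0.15, Pic at -0.11 ± 0.15 and Lps at -0.20 ± 0.15. Thus Lps had the lowest middle window mean difference and the highest late one of the 5 ligands. Lps and Pic were not told apart in the middle window, at -0.09 ± 0.16 (adjusted p = 0.7 in limma).

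Between ligands Hmox1 in the middle window gave -1.35 ± 0.16 for Lps against Pam, -1.04 ± 0.16 for Lps against Grd and -1.26 ± 0.16 for Pic against Pam, all called. The call for Lps against Grd was lost without the first 6 h array of Grd, at -0.87, and without the 4 h arrays, at -0.75. Pic against Grd, at -0.94, was called without the second 6 h Grd array, at -1.11. In the late window Lps against Pic gave 1.96 ± 0.16, and Pic against Pam, Cpg and Grd gave -1.42 ± 0.16, -1.57 ± 0.18 and -1.60 ± 0.16, all called. The other late pairs were not called, with Lps against Pam at 0.54 ± 0.16.

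Mt1, at chr8:94178883-94180327, encodes metallothionein 1. It was not called early or in the middle window, and in the late window it fell with every ligand but Pam. Without the 4 h arrays of each ligand it was called in the middle window with Pic (-1.06), Cpg (-1.05) and Grd (-1.01). There 4 of 6 arrays lay below all unstimulated arrays with each of Lps, Pic, Cpg and Grd, and 2 of 6 with Pam. The lowest, median and highest of the late arrays were 467, 526 and 930.4 with Lps, 533, 626 and 837 with Pic, 369, 548 and 814 with Cpg and 511, 895 and 987 with Grd, against 1599, 1875 and 2158 in unstimulated cells. With Pam they were 1023, 1244 and 1546. All late arrays of all 5 ligands lay below all 8 unstimulated arrays.

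The late differences of Mt1 were -1.60 ± 0.05 for Lps, -1.49 ± 0.05 for Pic, -1.63 ± 0.06 for Cpg and -1.27 ± 0.05 for Grd, with adjusted p between 4.4e-34 and 1.8e-29. For Grd the value without the 12 h arrays was -0.996, just short of the threshold. With Pam the difference of -0.58 ± 0.05 had an adjusted p of 3.1e-15 but was not called. The lowest array of each ligand was one of 12 h: there Lps read 527 and 467, Pic 574.5 and 533, Pam 1050.2 and 1023, Cpg 433.5 and 369 and Grd 511 and 539.6. The 24 h arrays stood higher than the 12 h ones with every ligand, with Lps at 911 and 930.4. Between ligands the late values were -1.02 ± 0.05 for Lps against Pam and 1.05 ± 0.06 for Pam against Cpg. Both lie close to 1: without the 12 h arrays they were -0.997 and 0.89. Lps against Pam was -0.88 without the 16 h arrays and -0.99 without the second 12 h Lps array.

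The Mt1 probe set is of a kind that matches several transcripts of a family, so that its values may hold other metallothioneins. The other probe set annotated to Mt1 was at 20 on 92 of 96 arrays and at most 25.4, and gave 0.00 for Lps, Pic, Cpg and Grd in the late window against unstimulated cells. The fall of Mt1 thus rests on 1 probe set.

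Late against middle window within a ligand, 4 of the 7 genes were called with Lps (6.82% of all items), 0 with Pic (2.27%), 1 with Pam (2.3%), 2 with Cpg (4.12%) and 2 with Grd (2.63%). With Lps, Hmox1 was higher late by 2.64 ± 0.16 and Slc11a1 by 1.42 ± 0.08, while Mt1 fell by 1.14 ± 0.05 and Hamp fell by 1.04. The call of Hamp, which is a description, ended without the first array of 6 h (-0.99), 8 h (-0.996) or 16 h (-0.99). It also ended with 16 added before the log (-0.71). That of Mt1 ended without the 4 h (-0.87), 12 h (-0.98) or 16 h arrays (-0.997) of each ligand. Slc11a1 was also higher late with Pam by 1.02 ± 0.08, Cpg by 1.30 ± 0.09 and Grd by 1.11 ± 0.08, and Hmox1 with Cpg by 1.44 ± 0.18 and Grd by 1.24 ± 0.16. Slc11a1 with Pam was 0.99 without the first 6 h array and 0.87 without the 4 h arrays. With Grd it was 0.996 without the 16 h arrays and 0.99 without those of 24 h. Mt1 with Cpg, at -0.93, was called without the 24 h array, at -1.15. With Pic, where limma called 0 of 7, 6 genes had an unadjusted p under 0.05. The one nearest to a call was Tfrc, -0.96 ± 0.13, which was called without the first array of 8 h (-1.02), 16 h (-1.06) or 24 h (-1.01).

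Over the 10 pairs of ligands in each of 2 windows, 26 of 140 pairs of a gene and a comparison were called, with p-values adjusted over all items within a comparison. The middle window counts were 2 of 7 for Lps against Pic (3.72% of all items), 2 for Lps against Pam (6.15%), 0 for Lps against Cpg (0.465%), 2 for Lps against Grd (1.99%) and 2 for Pic against Pam (8.24%). They were 1 for Pic against Cpg (3.41%), 1 for Pic against Grd (4.03%), 1 for Pam against Cpg (3.03%), 2 for Pam against Grd (1.48%) and 0 for Cpg against Grd (0.417%). Hamp made 4 of these calls, which are descriptions: Lps against Pic at 1.11, Lps against Grd at 1.09, Pam against Grd at 1.02 and Pic against Pam at -1.05. Pam against Grd was 0.99 without the second 4 h Pam array and 0.998 without the second 6 h Grd array. With 16 added before the log none of these 4 was called, at 0.75, 0.74, 0.69 and -0.71 in that order. Where Pic is the other ligand, its arrays were all at 20, so Hamp was at least 2.22-fold higher with Lps and at least 2.12-fold higher with Pam.

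The late window counts were 3 for Lps against Pic (3.44%), 1 for Lps against Pam (2.97%), 0 for Lps against Cpg (0.579%), 0 for Lps against Grd (1.2%) and 3 for Pic against Pam (8.47%). They were 2 for Pic against Cpg (5.08%), 3 for Pic against Grd (6.35%), 1 for Pam against Cpg (1.17%), 0 for Pam against Grd (0.645%) and 0 for Cpg against Grd (0.237%). Of the late calls, 11 of 13 had Pic on one side, and they were for Hmox1, Tfrc, Slc11a1 and Slc40a1. Over all items the late pairs with Pic also had the larger shares, 3.44% to 8.47%, against 0.237% to 2.97% for pairs without it. Lps against Cpg was not called for any of the 7 genes in either window, with 5 genes at an unadjusted p under 0.05 in the middle and 4 in the late window. Hamp is among these genes in both windows, and its p is no measure of its spread above the floor. The largest middle difference was that of Hamp, 0.96, which was called without the second 6 h Lps array, at 1.01, or the second 8 h one, at 1.01. For the other 4 pairs with 0 calls by limma, an unadjusted p under 0.05 was reached by 3 genes for Cpg against Grd in the middle window, and late by 5 for Lps against Grd, 3 for Pam against Grd and 2 for Cpg against Grd. Hamp is among the genes of each count for these 4 pairs too.

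Over plate rows E to H, which held all unstimulated arrays and those of Pam, of Grd and of part of Cpg, the fit with row as a block kept the late calls of Hmox1 with Pam (1.86), Cpg (2.09) and Grd (2.13), of Slc11a1 with Pam (1.49), Cpg (1.28) and Grd (1.72) and of Mt1 with Cpg (-1.71) and Grd (-1.25), and Hamp with Pam in the middle window (1.09). Cpg, which shared columns with unstimulated cells, gave 2.14 for Hmox1, 1.49 for Slc11a1 and -1.79 for Mt1 late with plate column as a block, all called. Lps and Pic shared neither rows nor columns with unstimulated arrays, so no such value was had for them.

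Other genes of the same pathways came from 4 lists. Of 45 iron-handling genes listed, 26 were tested. Late, 4 were called higher and 4 lower with Lps, 1 and 2 with Pic, 6 and 2 with Pam, 5 and 3 with Cpg and 5 and 3 with Grd, where 9.12%, 8.54%, 6.39%, 7.09% and 6.72% of all items were called. The median late difference of the list lay between 0.00 and 0.03, with that of all items between -0.03 and -0.01. Lcn2, a protein that captures bacterial siderophores, rose late by 4.21 ± 0.10 with Pam on the log2 scale, and by 3.49 with Lps, 3.68 with Cpg and 3.92 with Grd, with -0.09 for Pic, not called. Cp, the ferroxidase ceruloplasmin, rose late by 3.06 ± 0.12 with Cpg, and by 2.56 with Lps, 2.60 with Pam and 2.89 with Grd, with 0.35 for Pic, not called. Slc39a14, a zinc and iron importer, rose in the middle window by 2.40 ± 0.13 with Pam, with -0.41 for Pic, not called.

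Ltf, the iron-binding lactoferrin of neutrophil granules, fell late, with differences of -3.33 ± 0.09 for Pam, -2.82 for Lps, -2.13 for Cpg and -2.30 for Grd, and -0.78 for Pic, not called. It is itself one of the neutrophil markers, whose summed level is given above, and their part in this result was not tested. Hfe, which takes part in iron sensing, fell in the middle window with every ligand, with -2.58 ± 0.21 for Pam, -2.34 for Lps, -1.74 for Pic, -2.06 for Cpg and -2.37 for Grd. Hp, the hemoglobin-binding haptoglobin, rose late by 2.01 ± 0.14 with Pam, and by 1.08 with Lps, 1.53 with Cpg and 1.81 with Grd, with 0.76 for Pic, not called.

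Of 26 genes listed as regulators of hepcidin, 16 were tested. In the middle window 4 were called higher and 3 lower with Lps, 3 and 1 with Pic, 2 and 1 with Pam, 2 and 3 with Cpg and 2 and 2 with Grd, where 15.3%, 7.72%, 7.48%, 10.9% and 8.45% of all items were. The median difference of the list was 0.22 with Lps, 0.07 with Pic, 0.05 with Pam, -0.02 with Cpg and 0.00 with Grd, beside medians of all items of -0.11, -0.10, -0.03, -0.08 and -0.06. Il6, the cytokine that drives hepcidin in the liver, rose in that window with every ligand, by 7.97 ± 0.18 with Lps, 4.93 with Pic, 7.61 with Pam, 7.87 with Cpg and 7.70 with Grd. Inhba, a subunit of activin, a ligand of the same superfamily as bone morphogenetic proteins, rose by 5.30 ± 0.31 with Lps, 3.79 with Pic, 5.11 with Pam, 5.07 with Cpg and 5.14 with Grd. Hamp was called with Lps and Pam of these 5 ligands, as a description. The part of Il6 and Inhba in the Hamp result was not tested.

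Il6ra and Il6st, the receptor chains for interleukin 6, fell in the middle window, with -2.13 and -1.99 for Lps and -2.14 and -1.74 for Cpg and -1.56 and -1.35 for Grd. With Pam the values were -0.92 for Il6ra, not called, and -1.36 for Il6st, called, and with Pic -0.90 and -0.53, neither called. Cebpa, a transcription factor known to act on the liver gene, fell in that window, with -2.54 ± 0.09 for Lps, -1.47 for Pic and -1.54 for Cpg, and stood at -0.68 with Pam and -0.96 with Grd, not called. Bmpr2, a receptor of bone morphogenetic proteins, rose with Lps by 1.16 ± 0.13.

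Of 22 genes listed for the NRF2 and heme response, the program that also acts on Hmox1, 19 were tested. Late, 4 were called higher and 1 lower with Lps, 1 and 0 with Pic, 7 and 1 with Pam, 6 and 1 with Cpg and 7 and 1 with Grd, the shares of all items being 9.12%, 8.54%, 6.39%, 7.09% and 6.72%. The median late difference of the list was 0.75 with Lps, 0.08 with Pic, 0.87 with Pam, 0.73 with Cpg and 0.74 with Grd, beside medians of all items between -0.03 and -0.01. Slc7a11, the cystine importer, rose late by 2.28 ± 0.09 with Grd and by 1.80 with Lps, 1.07 with Pic, 2.22 with Pam and 1.96 with Cpg. Me1, a source of NADPH, rose by 2.18 ± 0.10 with Pam and stood at 0.69 with Pic, not called.

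Bach1, the heme-sensing repressor of Hmox1, fell in the middle window, with -1.74 ± 0.06 for Lps, -1.18 for Pam, -1.23 for Cpg and -1.08 for Grd, and stood at -0.36 with Pic, not called. In that window Hmox1 itself stood at -0.20 with Lps. Spic, a factor of iron-recycling macrophages, rose late by 2.06 ± 0.10 with Lps, 1.16 with Pam, 1.91 with Cpg and 1.25 with Grd, with 0.60 for Pic, not called. Spic is itself one of the 9 macrophage markers, whose late sums are given above for each ligand. Over all times, others of that list had different medians with Lps and in unstimulated cells. Lower with Lps were Mrc1 (498 against 1530), C1qa (363 against 750), Csf1r (1425 against 2257), C1qb, Mertk and Cd68. Higher were Marco (371 against 21.55) and Adgre1 (987 against 844). These medians are not of the late window alone, and the part of these markers in the Spic result was not tested. Maff, a small Maf protein, rose early with every ligand, by 2.84 ± 0.14 with Pam and by 1.39 with Pic, and Abcc1 rose late by 1.57 ± 0.07 with Pam.

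Of 35 genes listed for metal response and zinc transport, 23 were tested. Late, 3 were called higher and 0 lower with Lps, 1 and 1 with Pic, 5 and 0 with Pam, 3 and 0 with Cpg and 4 and 0 with Grd, beside 9.12%, 8.54%, 6.39%, 7.09% and 6.72% of all items. The list's median late difference was 0.20 with Lps, 0.09 with Pic, 0.13 with Pam, 0.15 with Cpg and 0.22 with Grd, and that of all items lay between -0.03 and -0.01. The copper transporters Slc31a1 and Slc31a2 rose late with Grd by 1.73 ± 0.06 and 1.93 ± 0.09, and with Pic stood at 0.39, not called, and 1.44, called. Sod2, the mitochondrial superoxide dismutase, rose late by 1.51 ± 0.06 with Grd. Slc30a1, a zinc exporter that is induced by zinc through the same factor as Mt1, rose in the middle window with Pic by 1.38 ± 0.08 and was not called with the other ligands there, at 0.60 with Lps and -0.55 with Pam. Slc39a4, a zinc importer, rose late with Pam by 1.82 ± 0.12.

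For each measured gene that spanned at least 1 log2 unit, the genes most like it over the 45 ligand and time means were listed, as a description. For Slc11a1 they were Tmem38b, Psmb5 and Serf1, with Pearson correlations of 0.96, 0.95 and 0.95. For Tfrc they were Prdx3 (0.95), Bcap29 (0.94) and P4hb (0.92), for Hmox1 Pdlim7 (0.95), Kif3c (0.94) and Dnmt3l (0.93), and for Mt1 Uqcr11 (0.92), Adk (0.91) and Mrpl23 (0.90). Hamp and Slc40a1 had weaker likenesses, the highest being Gfi1 at 0.72 for Hamp and Tjp1 at 0.78 for Slc40a1. These points share arrays, times and plate columns.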

How the data were processed

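Total RNA of 96 samples was labelled with biotin and hybridised to Affymetrix mouse HT arrays, per the labels. For each of 18858 probe sets the authors deposited an intensity, linear and between 20 and 16401.5. Per the submitters' processing notes they used RMA, a background correction with between-array normalization and a summary over probes. Its version, the return to a linear scale and the floor of 20 are not given in the sources used here. Between 33.1% and 34.6% of an array's probe sets lay at the floor, and a gene at 20 has only an upper bound there. The number of arrays limits the precision.

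The platform annotation gave the names, 15044 with 1 symbol, 257 with several and 3557 with none listed. Positions and promoter windows come from RefSeq tables of GRCm38.p6, and the values name no build. Leaving out 4409 probe sets that never passed the floor, and keeping 1 for each gene, gave 10543 items, of which 7741 were named genes. Values were analysed as log2(value + 1), which understates the change of dim genes, with no further normalization. In limma 3.58.1 under R 4.3.3, 45 means, 1 for each ligand at each time, and a mean of the 8 Control arrays were fitted together, with 50 residual degrees of freedom, empirical Bayes moderation, two-sided tests and Benjamini-Hochberg adjustment over all items. The code was tested on simulated data.

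All members are named, and of each pathway list at most 6 genes, those with the largest window differences. The members and lists were chosen with earlier results of these data known. Alternatives were the pseudocount (16), no filter, other probe sets, centred arrays, array weights, replicate and plate blocks, Control arrays of the same times or with a trend, and leaving out each array and each time.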

Additional observations from a re-analysis of the deposited data

Results flagged for a closer look

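Fth1 on the 0 h unstimulated array stood apart from the other 7 unstimulated arrays, at 10814 against 11596 to 12248. Chance flags about 1 in 20 such groups of replicates, but these arrays were 1 for each time and this one was the first. A stray array and a change with time cannot be told apart here. Over 24 h Fth1 changed by 0.15 ± 0.04 in unstimulated cells on the log2 scale (adjusted p = 0.061 in limma). The other members had no such array.

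For 9 pairs of a member and a ligand, the late window differed from the middle one in a direct test in limma. With Lps, Hmox1 was higher late by 2.64, Slc11a1 higher by 1.42, Mt1 lower, at -1.14, and Hamp lower, at -1.04, on the log2 scale. With Pam, Slc11a1 was higher late by 1.02. With Cpg, Slc11a1 was higher late by 1.30 and Hmox1 by 1.44. With Grd, Slc11a1 was higher late by 1.11 and Hmox1 by 1.24. For Hamp with Lps all unstimulated arrays were at 20, and 4 of its 6 late arrays were too, so this value is a description.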

How the results depend on the processing

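Of 56 called pairs of a member and a comparison, 28 kept their call under every alternative run and 28 lost it under at least 1, and none reversed. Those kept belonged to Hmox1, Slc11a1 and Slc40a1, and no call of Hamp, Tfrc or Mt1 was among them. Every call of Tfrc and Mt1 was lost with their other probe sets, which lay near the floor. The 56 include the calls of Hamp, which are descriptions: 2 against unstimulated cells, 4 between ligands and 1 late against middle. Hmox1, Slc11a1 and Fth1 have 1 probe set each, so the alternative with other probe sets did not apply to them. Among calls below unstimulated cells, 10 in the main fit, the count was 5 with the second-brightest probe set of each member that has one and 16 without the 4 h arrays of each ligand. The second Mt1 and Tfrc probe sets never passed 25.4 and 38.3, so a log2 fall of 1 to the floor was not possible there. In unstimulated cells over time the count of 1 fell to 0 with all probe sets tested. Leaving out 1 array at a time gave 0 to 1 calls there, 19 to 23 against unstimulated cells (11 to 11 higher, 8 to 12 lower), 25 to 27 between ligands and 8 to 10 late against middle. With the replicate block the counts were 21 against unstimulated cells (11 higher, 10 lower), 26 between ligands and 9 late against middle, each as without it. Replicate numbers did not pair the arrays: over 903 pairs of groups the deviations of same-numbered arrays correlated from -0.33 to 0.35 with a median of 0.0076, and the block is given for completeness. Plate row as a fixed block over all arrays could not be fitted and was run over rows E to H and as a random block. Hamp, the second Tfrc and Mt1 probe sets and Slc40a1 with Pic lie near the floor, which limits their folds. Without unstimulated arrays at 0.5 and 16 h, comparisons at the same times leave those times out.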
